A study of Mus musculus with 41 samples.

Results

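The semaphorin, ephrin and Eph receptor genes of the mouse were followed through the switch of epidermal stem cells (EpdSCs) by SOX9, a transcription factor that marks hair follicle stem cells. A gene was included when it is annotated as protein-coding and its symbol begins with Sema, Epha, Ephb, Efna or Efnb followed by a digit, which gave 42 of 21938 protein-coding genes: 20 semaphorins, 8 ephrins and 14 Eph receptors. The locus of a gene was its body with 20 kb to each side, and a peak was counted for every gene whose locus it overlapped. All 42 genes were annotated, and none was filtered out. CUT&RUN (hereafter CNR), which cuts out and sequences the DNA a protein occupies, had been performed for SOX9 and for the histone methyltransferases MLL3/4 in EpdSCs of back skin, and for MLL3/4 and a MYC tag in cultured keratinocytes. The skin cells came from male CD1 mice carrying K14rtTA and TRE-myc-Sox9, in which doxycycline (DOX) switches on MYC-tagged SOX9 in the cells that use the keratin 14 promoter. They were sorted by CD49f-high and Ly6A-high staining, without CD34 and without the markers CD31, CD45, CD117 and CD140a. D0 was taken at postnatal day 21 without induction, and W1, W2 and W6 at days 28, 35 and 63 after 1, 2 and 6 weeks of DOX. W12 came, per the study's methods, from newborn epidermis of the same genotype grafted onto Nude hosts and induced for 12 weeks, so time of induction and grafting cannot be told apart there. The cultured keratinocytes carried K14rtTA and, delivered by lentivirus, a DOX-driven MYC-tagged SOX9 in 1 of 3 forms: wild type (WT-SOX9), noTA-SOX9 without the transactivation domain, or noHMG-SOX9 without the DNA-binding HMG domain. They were given DOX at 1 µg/ml, and WT-SOX9 cells without DOX served as the uninduced control.

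Semaphorins are guidance proteins that act through plexins, and most of the secreted Sema3 proteins do so together with neuropilins. The Sema4, Sema5, Sema6 and Sema7 proteins stay on the cell surface. Eph receptors are receptor tyrosine kinases whose ligands, the ephrins, are themselves bound to the neighbouring cell, so that contact between cells signals in both directions. Both systems were first described in growing axons and are known in epithelia for cell repulsion, boundaries, adhesion and the cytoskeleton. MLL3/4 place the methyl mark of enhancers on histone H3.

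The sequences below are the windows of 50 bp to each side of the point of highest signal for the strongest induced SOX9 or WT-SOX9 peaks of these loci that held a SOX word and lay outside untranslated regions. Strength here and below is the total signal of a peak within its list. The RPKM given for a peak is its maximum, so a peak of lower rank can have the higher RPKM. A peak is called new where no uninduced list of the same antibody overlaps it. All are the plus strand of mm10, 5′ to 3′, and the capitals mark the SOX word on either strand. The word is CCATTGT, also counted with G as its first letter or with T for its A.
Efnb2, SOX9 W1, chr8:8639937-8640037: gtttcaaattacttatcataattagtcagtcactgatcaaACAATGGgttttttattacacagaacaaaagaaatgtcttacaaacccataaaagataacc
Sema3c, SOX9 W1, chr5:17556149-17556249: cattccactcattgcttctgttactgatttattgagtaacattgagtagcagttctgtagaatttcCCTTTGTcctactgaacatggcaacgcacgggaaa
Sema3b, SOX9 W6, chr9:107612053-107612153: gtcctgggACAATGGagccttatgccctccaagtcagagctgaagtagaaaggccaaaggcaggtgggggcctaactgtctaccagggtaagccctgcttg
Sema4f, SOX9 W6, chr6:82948005-82948105: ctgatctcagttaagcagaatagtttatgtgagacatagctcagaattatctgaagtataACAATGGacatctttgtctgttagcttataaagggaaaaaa
Sema5a, WT-SOX9 in culture, chr15:32575644-32575744: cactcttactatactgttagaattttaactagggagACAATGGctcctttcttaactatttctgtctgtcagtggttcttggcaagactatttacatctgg
In 4 of these 5 windows the word was CCATTGT on the minus strand, and in the Sema3c window it was CCTTTGT on the plus strand. Other strong peaks described below held no SOX word in their windows and are not shown. Among them are the Sema3c site 67935 bp into the gene and the named SOX9 or WT-SOX9 peaks in introns of Sema4b, Efna5 and Sema3e.

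Each group was represented by 1 peak list called on 2 pooled samples, so no difference between groups could be tested, and counts and shares are given with 95% Wilson intervals that cover counting error only. No molecular identifiers are described for the reads, so fragments are not known to be independent molecules. The 16 lists held between 792 peaks (SOX9 at D0) and 37072 peaks (MLL3/4 at D0). In the SOX9 lists the weakest peak rested on 24 to 59 fragments at its maximum and in the MYC-tag lists on 8 to 11, so the same threshold of 1800 RPKM asked for fewer fragments in culture. Depth behind the pooled MLL3/4 lists is unknown. At D0 the loci of Krt5, Krt14, Trp63, Itga6 and Col17a1, genes of basal epidermis, held 5 to 20 MLL3/4 peaks each. Of the hair follicle genes Lgr5 and Cd34 held 0, Lhx2 2 and Nfatc1 8, and of the genes of cells removed by the sort Ptprc and Kit held 0, Pdgfra 2 and Pecam1 13. RNA was not analysed here, and a peak in a locus does not say which gene it serves: 26 of the 42 loci held part of at least 1 other protein-coding gene.

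SOX9 peaks were almost absent from these loci before induction, were found at most of them from W1 to W6 and at 21 of 42 at W12. The 7.43 Mb of locus held 5 SOX9 peaks in the D0 list and 84, 111, 120 and 46 in the lists of W1, W2, W6 and W12. Per Mb this was 0.673, 11.3, 14.9, 16.1 and 6.19 peaks, beside 0.397, 8.05, 9.82, 10.4 and 4.63 per Mb over the loci of all protein-coding genes. At least 1 SOX9 peak was held by 5 of the 42 genes in the D0 list and by 28, 32, 36 and 21 in the later lists. That is 11.9%, 66.7%, 76.2%, 85.7% and 50.0% of the members, beside 3.43%, 38.5%, 44.2%, 44.5% and 26.2% of all protein-coding genes in the same order. The median gene body among the 42 was 28.8 kb against 17.4 kb over all genes. Among the 10960 genes with a body between 14.4 and 180 kb, the members' own quartiles, the shares were 3.49%, 44.1%, 50.7%, 51.4% and 31%. These are the genes of similar length below. The members' shares still include members outside that range, such as Sema6d with 577802 bp, so length was not fully matched. In 37 of 42 loci a SOX9 peak was listed at W1, W2, W6 or W12, against 54% of all genes and 61.9% of those of similar length. With lists of equal size the densities from W1 to W6 were 6.86, 7.40 and 7.80 peaks per Mb beside the same 6.19 at W12, with 20, 20, 21 and 21 genes holding a peak from W1 to W12, and the W12 list is the shorter one, with 9745 peaks against 15651 to 20579.

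**Figure D1:**
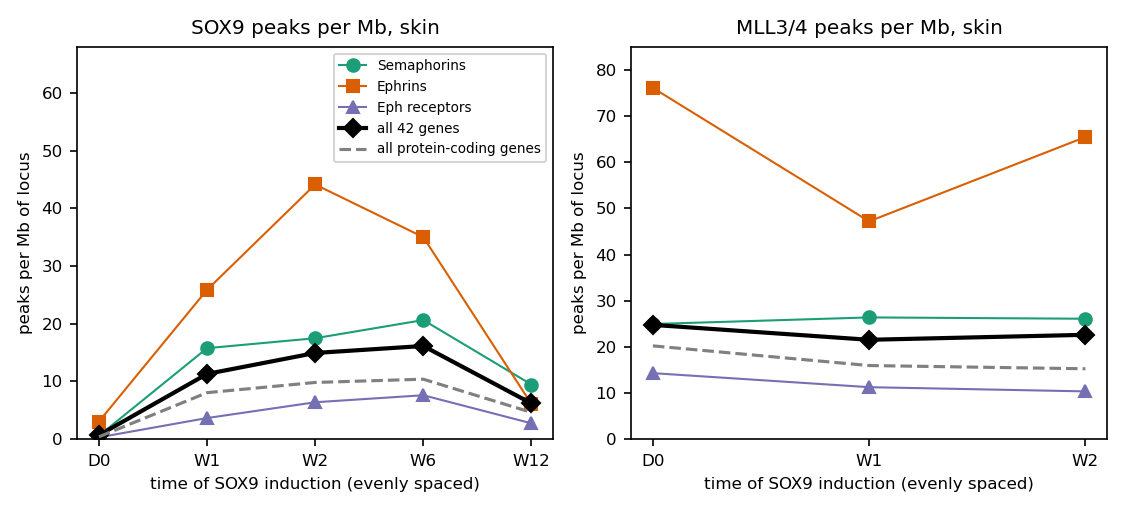
Peaks per Mb of locus for SOX9 (left) and MLL3/4 (right) in skin, by time of SOX9 induction with the time points evenly spaced; each point is 1 pooled list, coloured by family, with all 42 genes in black and all protein-coding genes dashed. Ephrin loci were the densest at W2, with 44.2 SOX9 peaks per Mb, and Eph receptor loci lay below the dashed line at each time point.

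The families differed in density. Ephrin loci, which are short with a median body of 9.97 kb, held 3.05, 25.9, 44.2, 35 and 6.09 SOX9 peaks per Mb from D0 to W12. Semaphorin loci held 0.573, 15.8, 17.5, 20.6 and 9.46, and Eph receptor loci, with a median body of 92.4 kb, 0.304, 3.65, 6.39, 7.60 and 2.74. All 8 ephrins held a SOX9 peak at W1, W2 and W6 but 3 of 8 did at W12. The flanks of 20 kb exceed most ephrin bodies, and for 22 of the 31 ephrin sites the nearest coding start belonged to a member. Every site in the Efna2 locus was nearest to Cirbp and every site in the Efnb3 locus to Wrap53. The W1 peaks of Efna3 were also counted for Efna4. Of the semaphorins 14, 16, 18 and 12 of 20 did at W1, W2, W6 and W12, and of the Eph receptors 6, 8, 10 and 6 of 14. In Epha3, Epha5, Epha6, Epha8 and Sema6b no SOX9 list held a peak, and in Sema7a, a membrane-anchored semaphorin, only the W12 list did. The 5 uninduced SOX9 peaks lay in the loci of Efna2, Efna5, Epha1, Sema3a and Sema3b. The highest of them, 3505 RPKM at its maximum, was at the shared promoter of Hyal1, Hyal3 and Naa80 inside the Sema3b locus.

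**Figure D2:**
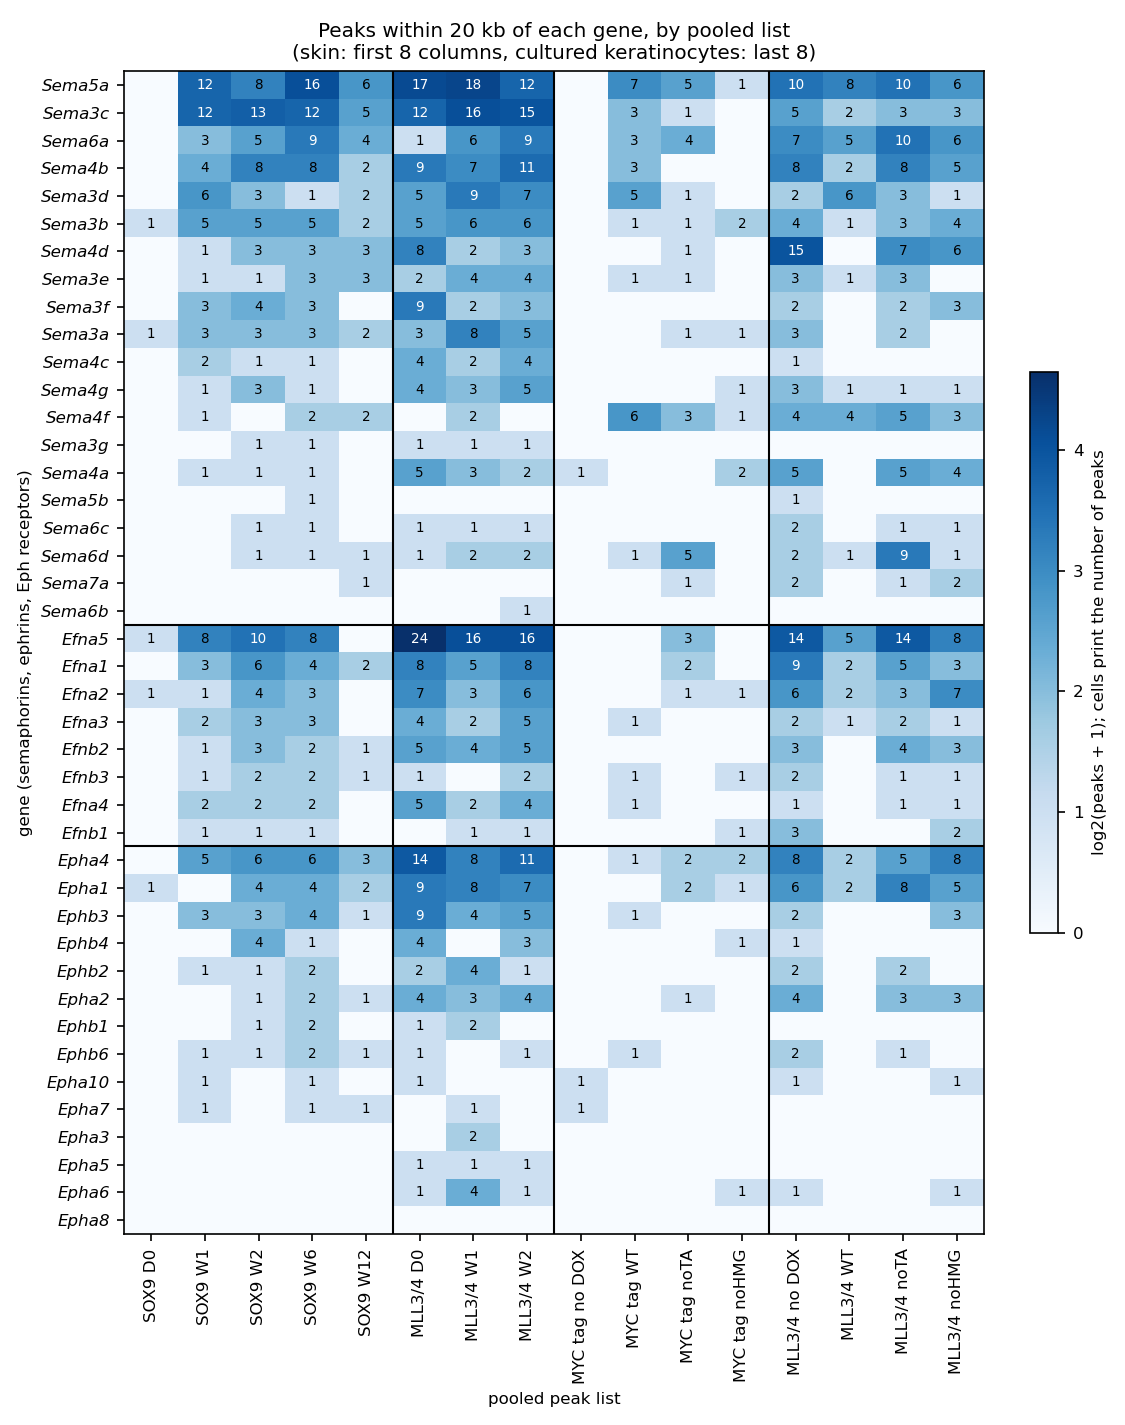
Number of peaks in the locus of each of the 42 genes (rows, by family and within a family by merged SOX9 sites) in each of the 16 pooled lists (columns), with colour on a log2(peaks + 1) scale and the number printed in the cell. Sema5a and Sema3c carried the most SOX9 peaks, Efna5 the most MLL3/4 peaks at D0 (24), and the MLL3/4 column of WT-SOX9 cells is emptier than the no-DOX column beside it.

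Peaks of W1 to W12 that overlapped were merged into 161 sites. Sema5a, a transmembrane semaphorin with a body of 451532 bp (chr15:32244810-32696341, plus strand), held the most with 22, of which 21 were in its own introns. Its SOX9 counts were 0, 12, 8, 16 and 6 from D0 to W12, and its MLL3/4 counts were 17, 18 and 12 at D0, W1 and W2. In culture it had 0, 7, 5 and 1 MYC-tag peaks with no DOX, WT-SOX9, noTA-SOX9 and noHMG-SOX9, and 10, 8, 10 and 6 MLL3/4 peaks. Of its 22 sites 7 were seen at W6 only, the most of any member. The site 330884 bp into the gene was listed at all 4 induced time points, with maxima of 6857, 6265, 7934 and 3998 RPKM at W1, W2, W6 and W12 and no peak at D0. The WT-SOX9 peak chr15:32575583-32575937 lay on the same site, ranked 239 of 6671 with a maximum of 9521 RPKM, together with an MLL3/4 peak in WT-SOX9 cells. In skin MLL3/4 was listed there at W1 alone. No MYC-tag peak of noTA-SOX9 or noHMG-SOX9 and no MLL3/4 peak without DOX overlapped it. Its sequence is the one given above for Sema5a.

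Sema3c, a secreted semaphorin (chr5:17574281-17730268, plus strand), held 14 sites, 12 of them intronic. Its SOX9 counts were 0, 12, 13, 12 and 5 from D0 to W12, and its MLL3/4 counts 12, 16 and 15 at D0, W1 and W2. In culture it held 0, 3, 1 and 0 MYC-tag peaks with no DOX, WT-SOX9, noTA-SOX9 and noHMG-SOX9, beside 5, 2, 3 and 3 MLL3/4 peaks. Of the 14 sites 7 lay on an MLL3/4 peak of D0, and the other 7 on one that was first listed at W1 or W2. The strongest, chr5:17641702-17642591, lies 67935 bp into the gene and ranked 425 of 15651 by total signal in the W1 list. Its maxima were 9969, 7105, 4659 and 2482 RPKM from W1 to W12. It had no MLL3/4 peak at D0 and one at both W1 and W2, and these were the gained MLL3/4 peaks of highest total signal in all 42 loci at both times. No cultured list held a peak there. By total signal another intronic site of Sema3c, 99758 bp into the gene, was the second strongest new peak of these loci at W12. Its maximum was 3769 RPKM. That site carried an MLL3/4 peak at D0, W1 and W2 alike. The window above for Sema3c lies upstream of the gene, in a site listed from W1 to W12 with maxima of 3688, 4431, 4114 and 2849 RPKM and with MLL3/4 at D0, W1 and W2.

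**Figure D3:**
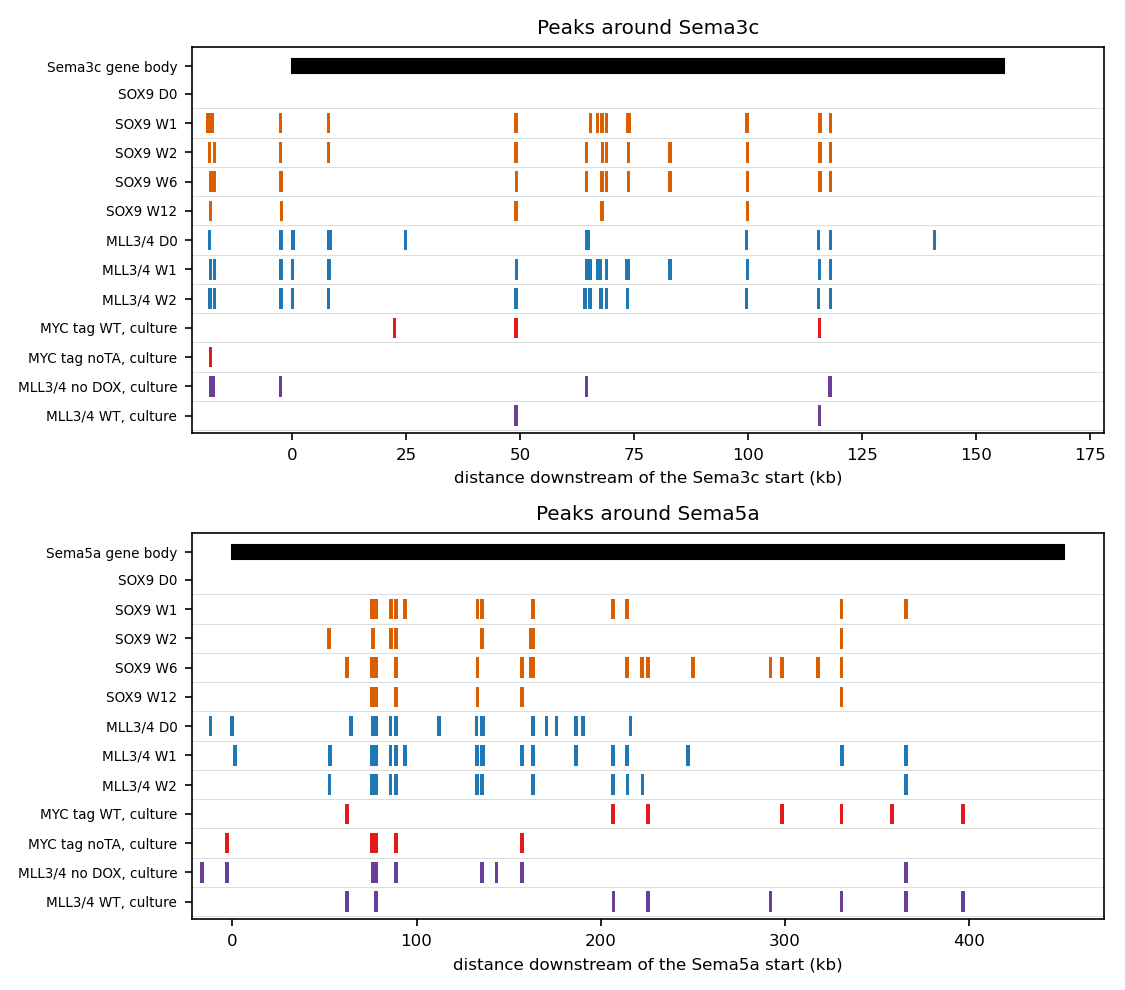
Peaks around Sema3c (top) and Sema5a (bottom) in 12 lists, placed by their point of highest signal in kb downstream of the gene start; each bar is 1 peak, drawn no narrower than a readable minimum, and the black bar is the gene body. At 67935 bp in Sema3c, SOX9 peaks from W1 on and MLL3/4 peaks of W1 and W2 stand where D0 has neither, and at 330884 bp in Sema5a skin SOX9, WT-SOX9 and the MLL3/4 peak of WT-SOX9 cells line up.

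Sema6a, a transmembrane semaphorin on chromosome 18, held 11 sites, and its SOX9 counts were 0, 3, 5, 9 and 4 from D0 to W12. It was the member with the largest net gain of MLL3/4, from 1 peak at D0 to 6 at W1 and 9 at W2. In culture it had 0, 3, 4 and 0 MYC-tag peaks and 7, 5, 10 and 6 MLL3/4 peaks in the same order as above. Sema4b, also transmembrane, held 9 sites with SOX9 counts of 0, 4, 8, 8 and 2, MLL3/4 counts of 9, 7 and 11 in skin, 0, 3, 0 and 0 MYC-tag peaks and 8, 2, 8 and 5 MLL3/4 peaks in culture. By total signal its intronic site 21325 bp past the start was the second strongest new peak of these loci at W2 and W6. The maxima of that site were 5730 and 3904 RPKM, and it was not in the W12 list. Sema3d, secreted, held 7 sites and was highest at W1, with 0, 6, 3, 1 and 2 SOX9 peaks and 5, 9 and 7 MLL3/4 peaks. In culture it held 0, 5, 1 and 0 MYC-tag peaks and was the only member with more MLL3/4 peaks in WT-SOX9 cells than without DOX, at 2, 6, 3 and 1.

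Sema3b, a secreted semaphorin whose locus it shares with 5 other genes, had 1, 5, 5, 5 and 2 SOX9 peaks, 5, 6 and 6 MLL3/4 peaks in skin, 0, 1, 1 and 2 MYC-tag peaks and 4, 1, 3 and 4 MLL3/4 peaks in culture. By total signal the peak upstream of Sema3b at chr9:107611593-107613241 was the strongest new SOX9 peak of these loci at W2 and at W6. Its maxima were 3820 and 4827 RPKM, and it was not listed at W12. Sema4f had only 2 SOX9 sites but 6 WT-SOX9 peaks. The site upstream of it (chr6:82947859-82948776 at W6), by the start of the neighbouring gene M1ap, was the strongest of these loci at W12 (8227 RPKM, rank 54 of 9745) and in WT-SOX9 cells (10014 RPKM, rank 191 of 6671), and reached 7430 RPKM at W6. It was listed at W1 with 2651 RPKM and not at W2. A noTA-SOX9 peak of 9846 RPKM lay on the same site, and MLL3/4 peaks were there in all 4 cultured lists. Over all lists Sema4f had 0, 1, 0, 2 and 2 SOX9 peaks, 0, 2 and 0 MLL3/4 peaks in skin, 0, 6, 3 and 1 MYC-tag peaks and 4, 4, 5 and 3 MLL3/4 peaks in culture.

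Among the other secreted semaphorins, Sema3a held 1, 3, 3, 3 and 2 SOX9 peaks and 3, 8 and 5 MLL3/4 peaks in skin, with 0, 0, 1 and 1 MYC-tag peaks and 3, 0, 2 and 0 MLL3/4 peaks in culture. Sema3e held 0, 1, 1, 3 and 3 SOX9 peaks, 2, 4 and 4 MLL3/4 peaks, 0, 1, 1 and 0 MYC-tag peaks and 3, 1, 3 and 0 cultured MLL3/4 peaks. Its intron carried the third strongest WT-SOX9 peak of these loci by total signal, with a maximum of 6074 RPKM. In skin that peak was overlapped at W12 alone. Sema3f, which acts through neuropilin 2, had 0, 3, 4, 3 and 0 SOX9 peaks while its MLL3/4 peaks numbered 9, 2 and 3, with 0 MYC-tag peaks in any cultured list and 2, 0, 2 and 3 MLL3/4 peaks. Sema3g had 1 SOX9 peak at W2 and at W6, and the transmembrane Sema6b had 1 MLL3/4 peak of W2 as its only peak in the 16 lists. Sema4d, the ligand of plexin B1, had 0, 1, 3, 3 and 3 SOX9 peaks, 8, 2 and 3 MLL3/4 peaks, 0, 0, 1 and 0 MYC-tag peaks and 15, 0, 7 and 6 cultured MLL3/4 peaks. At W6 Sema4a, Sema4c, Sema4g, Sema5b, Sema6c and Sema6d held 1 SOX9 peak each.

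Efna5, whose product is anchored to the membrane by a lipid as in all A-type ephrins, held 11 sites (gene at chr17:62604184-62881317, minus strand), with SOX9 counts of 1, 8, 10, 8 and 0. Of these sites 10 lay on MLL3/4 peaks of D0 and none was listed at W12. By total signal the third strongest new SOX9 peak at W2 was intronic in Efna5 (chr17:62676083-62677220, maximum 3973 RPKM). Its MLL3/4 peaks numbered 24, 16 and 16 in skin and 14, 5, 14 and 8 in culture, and its MYC-tag peaks 0, 0, 3 and 0. Efna1 held 5 sites, with 0, 3, 6, 4 and 2 SOX9 peaks, 8, 5 and 8 MLL3/4 peaks, 0, 0, 2 and 0 MYC-tag peaks and 9, 2, 5 and 3 cultured MLL3/4 peaks. The loci of Efna3 and Efna4 overlap, with 3 and 2 sites, none of which lay on an MLL3/4 peak in skin. Efnb2, a transmembrane ephrin, held 3 sites. One of them is at an alternative start 21255 bp into the gene and stayed in the list from W1 to W12 with maxima of 7145, 6112, 6423 and 5193 RPKM. The MLL3/4 maximum at that site was 5, 13 and 20 at D0, W1 and W2, in unscaled coverage. Efna2, Efnb1 and Efnb3 held 4, 2 and 3 sites.

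Among the receptors, Epha4, which binds ephrins of both types, held the most with 6 sites, all within chr1:77460547-77471501 in its introns, and all 6 lay on MLL3/4 peaks of D0, W1 and W2. Its counts were 0, 5, 6, 6 and 3 for SOX9, 14, 8 and 11 for MLL3/4 in skin, 0, 1, 2 and 2 for the MYC tag and 8, 2, 5 and 8 for MLL3/4 in culture. The strongest of the 6 reached 9796, 10466, 6968 and 2528 RPKM at W1, W2, W6 and W12. Epha1 held 5 sites, with 1, 0, 4, 4 and 2 SOX9 peaks, 9, 8 and 7 MLL3/4 peaks, 0, 0, 2 and 1 MYC-tag peaks and 6, 2, 8 and 5 cultured MLL3/4 peaks. Ephb3 held 5 sites, with 0, 3, 3, 4 and 1 SOX9 peaks, 9, 4 and 5 MLL3/4 peaks, 0, 1, 0 and 0 MYC-tag peaks and 2, 0, 0 and 3 cultured MLL3/4 peaks. Ephb4, the receptor of ephrin B2, held 5 sites, with 0, 0, 4, 1 and 0 SOX9 peaks, 4, 0 and 3 MLL3/4 peaks, 0, 0, 0 and 1 MYC-tag peaks and 1, 0, 0 and 0 cultured MLL3/4 peaks. Epha2, known in keratinocytes, held 2 sites, as did Ephb1 and the kinase-inactive Ephb6, while Ephb2 held 3 and Epha7 and the kinase-inactive Epha10 held 1 each. Of the receptors without a SOX9 peak, the MLL3/4 lists of D0, W1 and W2 held 0, 2 and 0 peaks for Epha3, 1 at each time for Epha5 and 1, 4 and 1 for Epha6, and Epha8 had no peak in any of the 16 lists.

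Of the 161 sites 84 were already in the W1 list, and a further 45, 29 and 3 were first seen in the lists of W2, W6 and W12. The share seen at all 4 time points was 11.8% (19 of 161, interval 7.69 to 17.7%), beside 17.9% of the 28549 sites of the whole lists. The most frequent pattern was W1, W2 and W6 without W12, at 34 sites, and 51 sites were seen at a single time point. A W12 peak lay on 35% of the 120 peaks of W6 (interval 27.1 to 43.9%), and a W6 peak on 91.3% of the 46 of W12 (79.7 to 96.6%). Over the whole lists these shares were 39.7% and 85%. With lists of equal size they were 46.6% and 58.7%.

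By position 95 of 161 sites were intronic, 38 reached within 1 kb of the start of a protein-coding gene's transcript, 2 were exonic and 26 intergenic, and for 129 (80.1%) the nearest coding start belonged to one of the 42 genes. Among ephrin sites 38.7% (12 of 31) were at a promoter and among semaphorin sites 17.3% (17 of 98), with intervals of 23.7 to 56.2% and 11.1 to 26.0%. The SOX word was in the 101 bp window of 15.5% of W1, 10.8% of W2, 20% of W6 and 23.9% of W12 peaks, and in 7.14%, 8.11%, 6.67% and 6.52% of windows 1 kb to each side. Over the whole lists the shares were 18.5%, 15.5%, 18.8% and 24.8%, with 6.25 to 6.45% beside the peaks. The AP1 words TGACTCA and TGAGTCA, each the reverse complement of the other, were in 17.9%, 13.5%, 20.8% and 30.4% of the members' windows, beside 16.2%, 15.7%, 23.5% and 29.9% over the whole lists, and in 2.98%, 0.450%, 2.50% and 4.35% of windows 1 kb to each side of the members' peaks.

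Sites first seen at W6 or W12 stood mostly outside the MLL3/4 peaks of D0, W1 and W2, which were taken before those sites were listed. Of the 84 sites first seen at W1 65.5% overlapped an MLL3/4 peak of D0 (interval 54.8 to 74.8%), 84.5% one of W1 and 82.1% one of W2. Of the 45 first seen at W2 the shares were 55.6%, 53.3% and 73.3%. Of the 29 first seen at W6 it was 4 at each of the 3 times, 13.8% with an interval of 5.50 to 30.6%. Over the whole lists the D0 shares were 67.9%, 57.9% and 22.8% for sites first seen at W1, W2 and W6, an order these loci share with the rest of the genome. The SOX word was in the windows of 15.5% of the sites first seen at W1 (13 of 84, interval 9.27 to 24.7%), 8.89% of those of W2 (4 of 45, 3.51 to 20.7%), 37.9% of those of W6 (11 of 29, 22.7 to 56.0%) and 0 of the 3 of W12, with no steady order in time. Over the whole lists the shares were 18.5%, 11.0%, 20.5% and 20.4%. No MLL3/4 sample of W6 or W12 is among the samples, so MLL3/4 at the late sites at their own time is unknown.

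For MLL3/4 in skin, a peak of D0 without a counterpart in a later list was counted as lost, and a later peak without one at D0 as gained. The 42 loci held 184 MLL3/4 peaks at D0, 160 at W1 and 168 at W2. Of the 184 D0 peaks 48.9% were lost at W1 (interval 41.8 to 56.1%) and 39.7% at W2 (32.9 to 46.9%), beside 48.5% and 48.7% of the whole D0 list. Of the W1 and W2 peaks 42.5% (35.1 to 50.2%) and 35.7% (28.9 to 43.2%) were gained, beside 39.7% and 35.7%. SOX9 of the same week lay on 8.89% of the 90 peaks lost at W1, 36.8% of the 68 gained and 58.7% of the 92 kept, with intervals of 4.57 to 16.6%, 26.3 to 48.6% and 48.5 to 68.2%. At W2 the shares were 12.3% of 73 lost, 40.0% of 60 gained and 66.7% of 108 kept. The lost class lay below the other classes beyond counting error at both weeks, as it did over the whole lists, but with lists of equal size it lay below kept peaks only. The shares for lost, gained and kept peaks were then 6.78%, 20.3% and 47.1% at W1 and 6.98%, 23.5% and 39.0% at W2, and the intervals of lost and gained peaks overlapped, at 2.67 to 16.2% and 12.5 to 31.2% at W1 and 2.40 to 18.6% and 15.0 to 34.9% at W2. With the gene body alone they overlapped at W2 too, at 12.2% (5.32 to 25.5%) of lost and 33.3% (21.4 to 47.9%) of gained peaks.

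**Figure D4:**
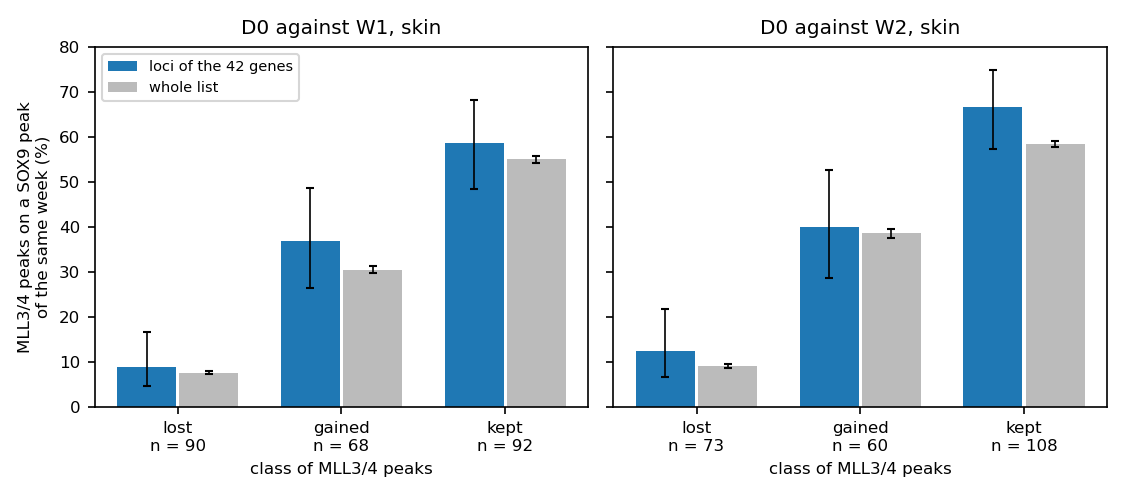
Share of lost, gained and kept MLL3/4 peaks that overlap a SOX9 peak of the same week, for D0 against W1 (left) and D0 against W2 (right), in the loci of the 42 genes (blue) and in the whole lists (grey); bars are percentages and error bars 95% Wilson intervals. Lost peaks were on SOX9 in 8.89% and 12.3% of cases, below gained and kept peaks at both weeks.

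The families differed in this change. In semaphorin loci 46 of 92 MLL3/4 peaks at W1 were gained and 23 of the 46 lay on SOX9, whereas in ephrin loci 4 of 31 were gained and 0 of them lay on SOX9. In Eph receptor loci 18 of 37 were gained, 2 of them on SOX9. At W2 45 of 91, 9 of 43 and 6 of 34 were gained in semaphorin, ephrin and Eph receptor loci, with 18, 4 and 2 of them on SOX9. The gained shares at W1 were 50.0% (40.0 to 60%) for semaphorins and 12.9% (5.13 to 28.9%) for ephrins. By gene, 15 of the 42 (35.7%) had more MLL3/4 peaks at W1 than at D0 and 20 (47.6%) had fewer. This compares with 14.4% and 38.7% of all protein-coding genes and 16.4% and 43.6% of those of similar length. At W2 13 had more and 14 fewer, against 12.5% and 39.6%. Those with more at W2 were 10 of 20 semaphorins, 3 of 8 ephrins and 0 of 14 Eph receptors. Among genes of similar length 14.3% had more at W2 and 44.9% fewer. A gained MLL3/4 peak on SOX9 was held by 9 genes at W1 and 15 at W2, that is 21.4% and 35.7% of the 42, against 10.3% and 11.7% of all genes and 12.8% and 14.0% of those of similar length.

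The largest net gains from D0 to W2 were those of Sema6a (8 peaks), Sema3c (3) and Sema3a, Sema3d, Sema3e and Sema4b (2 each). The largest net losses were those of Efna5, from 24 to 16, Sema3f, from 9 to 3, Sema4d, from 8 to 3, Sema5a, from 17 to 12, and Ephb3, from 9 to 5. Gained peaks on SOX9 at W1 numbered 7 in Sema3c, 6 in Sema5a and 5 in Sema3d, which together held 18 of the 25 in all loci. The lost D0 peak of highest total signal at W1, upstream of Sema4b at chr7:80166653-80167342, was on no SOX9 peak at W1 but overlapped one at W2 (2750 RPKM), W6 (4911 RPKM) and W12 (2666 RPKM), and MLL3/4 was listed there again at W2. The next, in an intron of Sema5a at chr15:32415132-32415692, was also lost at W2 and was overlapped by no SOX9 list. In an exon of Ephb4 a D0 peak at chr5:137373729-137374259 was lost at W2, where a SOX9 peak of 2292 RPKM was listed. At W2 the second strongest gained peak, in an intron of Efna5 at chr17:62680779-62681222, was on no SOX9 peak.

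In cultured keratinocytes the MYC tag gave 3 peaks in these loci without DOX, 35 with WT-SOX9, 35 with noTA-SOX9 and 16 with noHMG-SOX9, or 0.404, 4.71, 4.71 and 2.15 per Mb. Over all protein-coding loci the densities were 1.26, 3.34, 5.36 and 2.10 per Mb. The study reports that noHMG-SOX9 did not bind DNA, so its MYC-tag peaks are not read here as binding. The uninduced list of replicate 1 alone, which differs from the pooled list in its samples and also lacks the threshold of 1800 RPKM, held 26 peaks here in place of 3, and against it 34 in place of 35 WT-SOX9 peaks had no uninduced counterpart. A WT-SOX9 peak missed without DOX was held by 15 of the 42 genes (35.7%), against 19.2% of all genes and 22.7% of those of similar length. A noTA-SOX9 peak was held by 17 genes against 27.1% of all, a noHMG-SOX9 peak by 13 against 18.8%, and an uninduced one by 3 (Epha7, Epha10 and Sema4a) against 12.6%. Semaphorin loci held 30 of the 35 WT-SOX9 peaks, with 7 in Sema5a, 6 in Sema4f, 5 in Sema3d and 3 each in Sema3c, Sema4b and Sema6a.

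WT-SOX9 and noTA-SOX9 had equal numbers of peaks but mostly different ones: 5 of 35 WT-SOX9 peaks overlapped a noTA-SOX9 peak (14.3%, interval 6.26 to 29.4%), beside 19.2% of the whole list. Of the 35 WT-SOX9 peaks 21 (60%, 43.6 to 74.4%) overlapped a SOX9 peak of skin at W1 to W12, beside 54.6% of the whole list, and W6 was the time point with most, at 18. The SOX word was in the window of 31.4% of WT-SOX9 peaks (18.6 to 48.0%) and 17.1% of noTA-SOX9 peaks (8.10 to 32.7%), with 7.14% and 12.9% beside them, and in 0 of 16 noHMG-SOX9 peaks, which allows up to 19.4%. Over the whole lists the shares were 34.2%, 12.6% and 5.28%. AP1 words were in 1 of 35 WT-SOX9 windows (2.86%) and in 13 of 35 noTA-SOX9 windows (37.1%), beside 7.15% and 25.7% of the whole lists, which show the same order.

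MLL3/4 peaks were fewer in these loci in WT-SOX9 cells, with 144 without DOX and 45 with it, while noTA-SOX9 cells had 120 and noHMG-SOX9 cells 92. The whole lists shortened too, from 33975 to 10543, 25948 and 23301, and the part of depth in this was not tested. Of the 144 uninduced peaks 16.0% were kept with WT-SOX9 (interval 10.9 to 22.8%), 59.0% with noTA-SOX9 (50.9 to 66.7%) and 54.2% with noHMG-SOX9 (46.0 to 62.1%), beside 18%, 55.7% and 56.5% of the whole list. With lists of equal size the kept shares of 38 uninduced peaks were 42.1% (27.9 to 57.8%), 68.4% (52.5 to 80.9%) and again 68.4%, with intervals that overlapped. By gene, 33 of 42 had fewer MLL3/4 peaks with WT-SOX9 than without DOX and 1 had more, against 51.4% and 4.13% of all genes and 58.9% and 4.78% of those of similar length. With noTA-SOX9 20 had fewer (47.6%) and 6 more (14.3%), against 35% and 11% of all genes and 39.8% and 12.9% of those of similar length. With noHMG-SOX9 25 had fewer (59.5%) and 3 more (7.14%), against 33.3% and 9.4% of all and 38.5% and 10.7% of similar length. The largest net losses with WT-SOX9 were those of Sema4d, from 15 to 0, Efna5, from 14 to 5, Efna1, from 9 to 2, Epha4, from 8 to 2, and Sema4b, from 8 to 2. The strongest uninduced peaks without a counterpart in WT-SOX9 cells lay in an intron of Epha4 (chr1:77460504-77461413) and downstream of Epha1, 1252 bp from the start of Zyx (chr6:42348078-42348525), and both were kept with noTA-SOX9 and noHMG-SOX9. With noTA-SOX9 the strongest lost peaks were intronic in Epha4 (chr1:77465130-77465982) and upstream of Efna2 (chr10:80160803-80161372), and with noHMG-SOX9 intronic in Efna5 (chr17:62756941-62757399) and upstream of Epha1 (chr6:42377187-42377625).

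**Figure D5:**
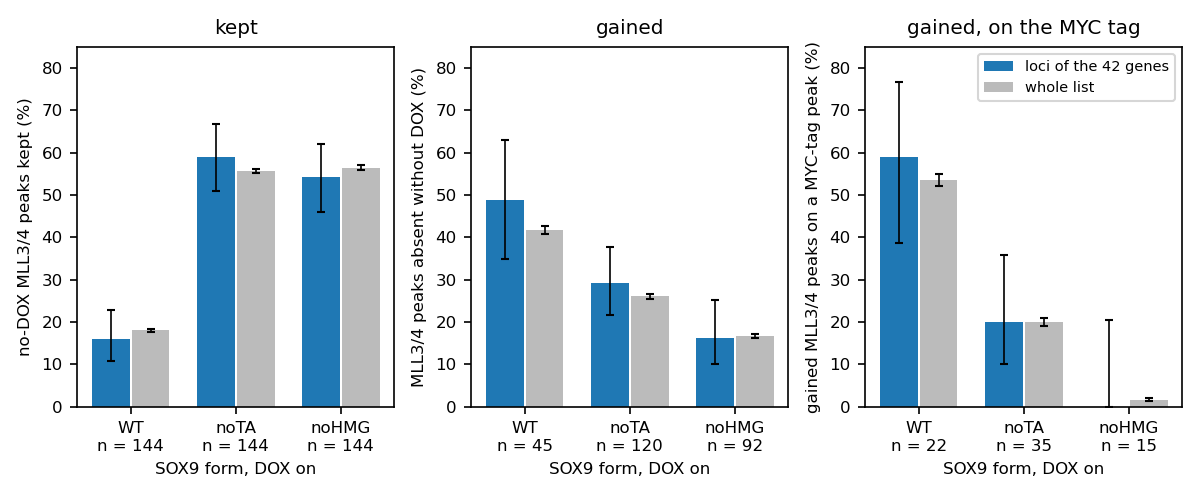
MLL3/4 peaks in cultured keratinocytes with each SOX9 form: share of uninduced peaks kept (left), share of peaks without an uninduced counterpart (middle) and share of those on a MYC-tag peak of the same form (right), in the loci of the 42 genes (blue) and the whole lists (grey), with 95% Wilson intervals and under each pair of bars the number of peaks in the 42 loci. The kept share was 16.0% with WT-SOX9 against 59.0% and 54.2% with the other two forms, and members and whole lists overlapped in their intervals in every pair.

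In the lists as deposited, gained MLL3/4 peaks in culture lay on the tagged protein in the largest share with WT-SOX9. In the 42 loci 22 of 45 MLL3/4 peaks with WT-SOX9 had no uninduced counterpart, and 13 of the 22 (59.1%, interval 38.7 to 76.7%) lay on a WT-SOX9 peak. With noTA-SOX9 it was 7 of 35 (20%, 10 to 35.9%), and with noHMG-SOX9 0 of 15, which allows up to 20.4%. Over the whole lists the shares were 53.5%, 20% and 1.69%. All 13 gained peaks on WT-SOX9 were in semaphorin loci, where 20 of the 22 gained peaks lay. With lists of equal size the WT-SOX9 share was 31% of 29 peaks (interval 17.3 to 49.2%) and the noTA-SOX9 share 5.88% of 17 (1.05 to 27.0%), while 1 of 16 gained peaks with noHMG-SOX9 (6.25%, 1.11 to 28.3%) lay on its own MYC-tag peak. These intervals overlapped, so no order was detectable at that size. The strongest gained peak with WT-SOX9, at chr2:124329406-124330230 in an intron of Sema6d, ranked 204 of 10543 and lay on a WT-SOX9 peak of 3940 RPKM and on SOX9 peaks of W2, W6 and W12. The next was upstream of Sema6a, on a WT-SOX9 peak of 3283 RPKM, with no skin SOX9 peak. The strongest gained peaks with noTA-SOX9 were also in introns of Sema6a and Sema6d, at other positions. With noHMG-SOX9 they were at the promoter of Ephb3 (chr16:21204396-21204751) and upstream of Efna2 (chr10:80160365-80160633). Sema6d, a transmembrane semaphorin, held 9 MLL3/4 and 5 MYC-tag peaks in noTA-SOX9 cells against 1 of each in WT-SOX9 cells.

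Of the 35 WT-SOX9 peaks 7 lay on an uninduced MLL3/4 peak and 28 outside. Of the 28, 13 (46.4%, 29.5 to 64.2%) lay on an MLL3/4 peak in WT-SOX9 cells and 1 on one in noTA-SOX9 cells. In the whole list 23.6% of WT-SOX9 peaks missed without DOX lay on an uninduced MLL3/4 peak and 56.4% on one in WT-SOX9 cells, beside 20% and 51.4% here.

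Genes that act with these ligands and receptors, and genes of other guidance families, were counted from lists set down together with the members. Their counts of genes with a SOX9 peak stand beside the 3.43%, 38.5%, 44.2%, 44.5% and 26.2% of all protein-coding genes given above, and their bodies are longer, with medians of 46.3, 114 and 125 kb for the 3 lists in the order of their description against 17.4 kb over all genes. Of 11 semaphorin receptors (plexins and neuropilins) 1, 4, 6, 4 and 2 held a SOX9 peak from D0 to W12, and Nrp2 had most sites (8) while Nrp1 had none in skin but 4 WT-SOX9 peaks in culture. At W2 2 of the 11 had more and 5 fewer MLL3/4 peaks than at D0, where 12.5% of all genes had more and 39.6% fewer. Of 24 genes of the signalling behind plexins and Eph receptors 4, 15, 17, 16 and 12 held a SOX9 peak, and Vav3 had 20 sites, Tiam1 15 and Mical3 14. Of these 24 genes 6 had more MLL3/4 peaks at W2 and 11 fewer. Of 22 genes of other guidance families (slits, robos, netrins and their receptors, repulsive guidance molecules and draxin) 0, 9, 10, 12 and 5 held a SOX9 peak, with 8 sites in Robo2 and 7 in Robo1, and 1 had more MLL3/4 peaks at W2 and 13 fewer. With WT-SOX9 in culture 9 of 11, 18 of 24 and 13 of 22 genes of the 3 lists had fewer MLL3/4 peaks than without DOX, and 1, 0 and 1 had more, against 51.4% and 4.13% of all genes.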

How the data were processed

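CUT&RUN samples were grouped by their titles. Of 41 samples 32 stood behind 18 deposited lists, 16 pooled over 2 samples and 2 of replicate 1 without DOX, and 9 samples were not analysed here. Per the submitters' processing notes and the study's methods, the authors aligned to mm10 with Bowtie2 2.2.9, removed duplicates with Picard, kept fragments up to 120 bp with SAMtools 1.3.1, made tracks with deepTools 3.1.2 and called peaks with SEACR (stringent, 0.01). The deposited maximum signal of the SOX9 and MYC-tag peaks is in RPKM, kept by the authors above 1800 except in the replicate 1 list, and in the 7 pooled MLL3/4 lists it is unscaled coverage signal, although RPKM was described. The deposited score of total signal is the sum over a peak. The MLL3/4 samples of WT-SOX9 cells with DOX are titled replicates 1 and 2, but both are described as replicate 2. Which replicates stand behind that pooled list is therefore unsure.

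Members, lists and rules were chosen with earlier results of these data known. Genes came from GENCODE vM21 and sequence from GRCm38.p6, coordinates counting from 1. Peaks were shared when they overlapped by 1 bp or more, and mitochondrial peaks (at most 4 a list) were dropped. Every member was named, with counts in all lists for those with the most merged SOX9 sites (8, ties kept) and, 5 each, the largest MLL3/4 gain or loss from D0 to W2, the most WT-SOX9 peaks missed without DOX and the largest MLL3/4 loss with WT-SOX9. Single peaks were those of highest total signal (3 per induced list, 2 per MLL3/4 change). The RPKM of 1 fragment was the largest step dividing the maxima. Python 3.11.15, pandas 2.3.3, numpy 2.4.6, scipy 1.17.1, pysam 0.24.0 and matplotlib 3.10.9 were used, and the counting was tested on planted intervals. Alternatives were other flanks, nearest genes, lists of equal size, a stricter maximum, merged peaks, larger overlap, the replicate 1 lists and other windows and words.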

Additional observations from a re-analysis of the deposited data

How the results depend on the processing

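No paired analysis was possible because each group has 1 pooled list. For the same reason replicates could not be left out, apart from the replicate 1 lists without DOX. A count or density was taken to move when it changed by more than 1.5 times, and a share when it left its 95% interval. Of 255 recomputed values 65 moved in this sense. Orders between time points also turned: with lists of equal size W12 had as many genes with a SOX9 peak as W6, 21, and more than W1 and W2, with 20 each, and with a maximum above 3600 the SOX9 density was higher at W2 than at W6. Merging near peaks and asking for an overlap of 50% changed values by no more than that. With the gene body alone the D0 SOX9 density was 0.345 per Mb with 2 genes, 11 genes had a W12 peak, the MYC-tag densities without DOX and with noHMG-SOX9 were 0.173 and 1.38 per Mb, 22 WT-SOX9 peaks were missed without DOX and 4.55% of WT-SOX9 peaks had a noTA-SOX9 peak. With 50 kb to each side the no-DOX MYC-tag density was 0.612 per Mb. Counting peaks only where a member start is nearest gave 0.269 per Mb and 2 genes for SOX9 at D0, and 0.135 and 1.21 per Mb for the MYC tag without DOX and with noHMG-SOX9.

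With lists of equal size SOX9 densities were 6.86, 7.40 and 7.80 per Mb at W1, W2 and W6, with 20 genes at W2 and 21 at W6. There were then 100 merged sites, 46.6% of W6 peaks had a W12 peak and 58.7% of W12 peaks a W6 peak. MLL3/4 lost shares were 41.0% at W1 and 29.9% at W2, SOX9 lay on 20.3% of gained and 47.1% of kept peaks at W1, and on 23.5% and 39.0% at W2. MYC-tag densities were 1.88, 1.61 and 0.807 per Mb with WT-SOX9, noTA-SOX9 and noHMG-SOX9, with 14 WT-SOX9 peaks missed without DOX. Cultured MLL3/4 was kept in 42.1%, 68.4% and 68.4% and gained in 64.4%, 39.5% and 38.1% with the 3 forms, and 31% and 5.88% of the gained peaks lay on WT-SOX9 and noTA-SOX9. These lists hold fewer peaks by construction.

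With a maximum above 3600 SOX9 densities were 0, 2.96, 4.71, 3.90 and 0.807 per Mb from D0 to W12, with 0, 9, 14, 14 and 5 genes, 49 sites, 4.08% of sites at all 4 time points and 17.2% of W6 peaks with a W12 peak. The MYC-tag densities were then 0, 1.08, 2.02 and 0.135 per Mb without DOX and with WT-SOX9, noTA-SOX9 and noHMG-SOX9, with 8 WT-SOX9 peaks missed without DOX, 25% of them on skin SOX9. With the replicate 1 list, which has no threshold of 1800 RPKM, the no-DOX MYC-tag density was 3.50 per Mb. In windows of 100 bp to each side the SOX word share was 18.9% at W2 and 48.6% for WT-SOX9. With an 8-letter word it was 5.95%, 3.60%, 4.17% and 10.9% from W1 to W12 and 0% for noTA-SOX9. How deeply the MLL3/4 lists were sequenced is not known, which limits every comparison of their lengths.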
